A study of Mus musculus with 98 samples.

Results

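Blood leukocytes of mice labelled as subjected to trauma-hemorrhage were compared between 2 codes, x and c, that appear in the array titles. The 12 arrays were chosen by their titles and labels alone, 6 of code x and 6 of code c, out of 98 arrays in the series and 64 from blood. All 12 carry the letter E, which the labels give to trauma-hemorrhage, so the injury label is common to both codes and no sham array (letter A) is among them. The labels do not say what x and c stand for, and they give no strain, age, sex or time for these samples. The codes are therefore compared as coded, with every difference given as x minus c. Each array measured total RNA on a 1-colour Affymetrix chip with 22690 probe sets. Whether arrays of 1 code stand for different mice is not stated, and each p-value therefore speaks only of the scatter among these arrays, which could be technical.

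Trauma with blood loss releases molecules from damaged tissue that are read by pattern receptors of innate immune cells, and NF-kB then drives cytokine and chemokine genes. Interferons, the cytokines best known from viral infection, act through receptor-bound JAK kinases and STAT and IRF factors to switch on a large set of defence genes. Type I and type II interferon share many of these targets, and the guanylate-binding and immunity-related GTPases, which attack the vacuoles of intracellular microbes, respond strongly to type II interferon. Blood RNA is in addition shaped by which cells are in the sample, from neutrophils and monocytes to lymphocytes, platelets and immature red cells.

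The arrays were alike in their median deposited intensity (117 to 127) and in the share of probe sets held at the lowest value of the set, 28.9 (6.51% to 7.27%). Neither measure differed between the codes in exact permutation tests, with adjusted p = 0.963 and 0.368 over 4 measures (n = 6 per code). The beta-actin control, whose 3' signal over its 5' signal (log2) serves as a measure of RNA integrity, did differ. It was 1.35 ± 0.22 (SD, n = 6) in x, from 0.97 to 1.57, and 1.93 ± 0.12 (SD, n = 6) in c, from 1.79 to 2.07 (two-sided exact permutation test, p = 0.00216, the smallest that 924 permutations allow, adjusted p = 0.00866). The same ratio of the GAPDH control was 2.82 ± 0.16 in x and 2.81 ± 0.14 in c (exact permutation test, adjusted p = 0.963, n = 6 per code). The first principal component held 50.5% of the variance of the 12 arrays. Array 2 of code x scored 51.3 on it and array 4 scored 32.5, against 6.75 to 13.7 for the other x arrays, so these 2 stood apart. Within code c, arrays 1 and 3 scored -4.22 and -3.92 and the other 4 scored -31.8 to -26.1. Array numbers only name the samples. Pairs of x arrays correlated at 0.950 to 0.991 and pairs of c arrays at 0.966 to 0.989 over all probe sets, and no 2 arrays held identical values.

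**Figure D1:**
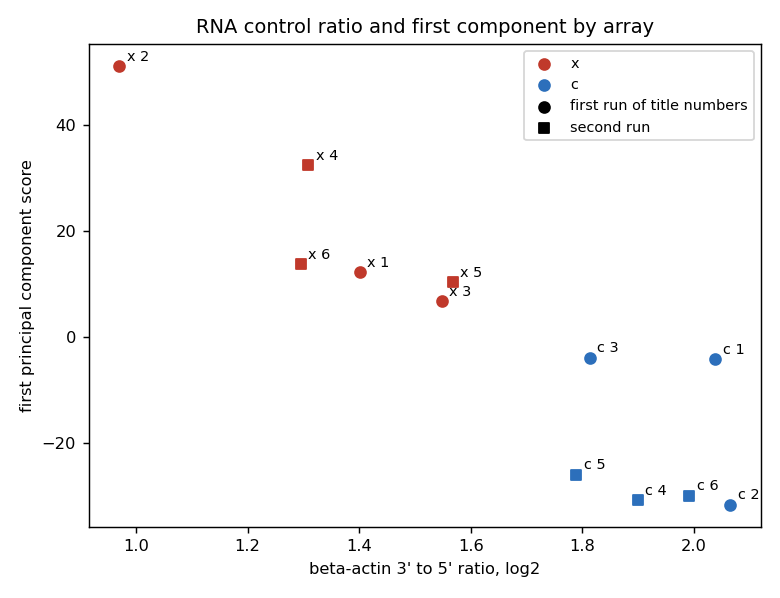
Each point is 1 array, with the beta-actin 3' over 5' ratio (log2) across and the score on the first principal component (no unit) up, coloured by code and shaped by run of title numbers. The x arrays lie at 0.97 to 1.57 and the c arrays at 1.79 to 2.07 on the ratio, and x arrays 2 and 4 score highest on the component.

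Code x differed from code c across many genes, with Saa3, Gbp2 and Acod1 the largest on the higher side and Fbxo9, Bsdc1 and Trim10 on the lower. On the log2(intensity + 16) scale, limma called 3532 of 22626 probe sets different at an adjusted p of 0.05, which is 15.6% of those tested. Of these, 1401 were higher in x and 2131 lower, so 39.7% were higher. The split depends on the scaling: 53.5% of the calls were higher with the values as deposited (1700 of 3176) and 50.3% with arrays scaled to one median (1798 of 3574). With 1 probe set for each of 12393 genes, 741 genes were higher (5.98%) and 1357 lower (10.9%), and the median difference over all these genes was -0.03. A difference of at least 1 log2 was seen in 126 of the higher genes and in 32 of the lower ones. All 6 x arrays lay above all 6 c arrays in 349 genes (2.82%) and below them in 574 (4.63%).

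The number of calls rested on single arrays. Leaving out 1 array at a time gave 1662 to 4081 called probe sets, with 2125, 1662 and 1734 without c arrays 2, 4 and 6, and 2204 and 2047 without x arrays 2 and 4. Without both x arrays that stood apart, 1274 probe sets were called. Of the 2098 called genes, 701 were called there too and all 2098 kept their direction. They had been called on arrays that this fit reuses, so their direction was nearly fixed in advance and shows little. The titles form 2 runs of consecutive numbers, each with 3 x and 3 c arrays, and limma called 1 probe set in the first run alone, 1713 in the second run alone and 3378 with the run as a block. With the beta-actin ratio as a covariate, limma called 0 probe sets. The ratio separates the codes completely, so for every x minus c difference given here the code and this sign of RNA quality cannot be told apart. In that fit the 12 genes with the largest higher difference ranged from 1.07 to 3.02 and the 12 with the largest lower difference from -1.37 to -0.36, all 24 with their sign kept and none called.

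**Figure D2:**
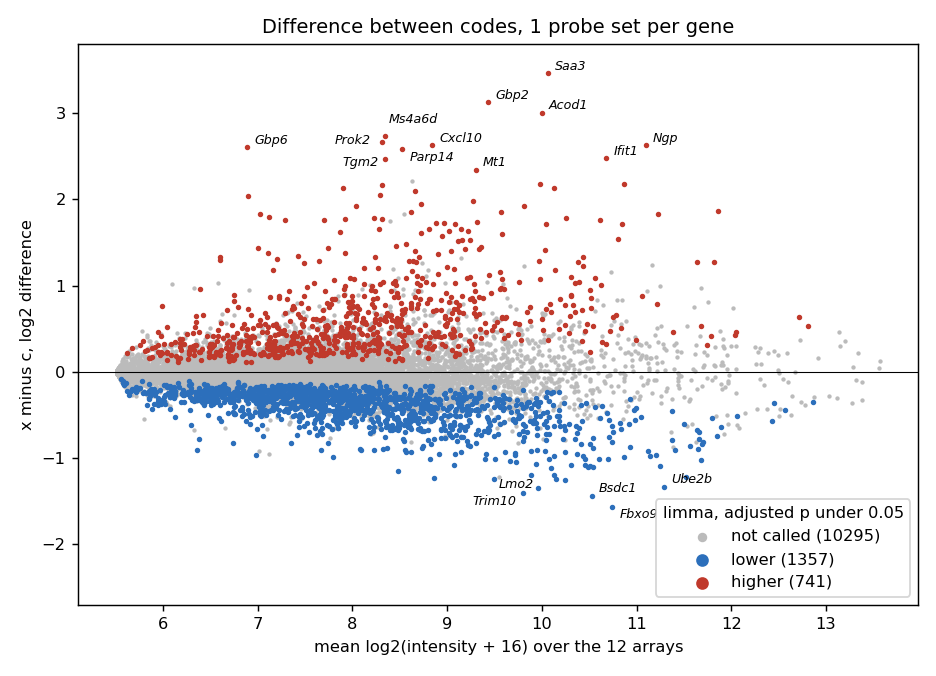
Each point is 1 of 12393 genes, with the mean log2(intensity + 16) over the 12 arrays across and the x minus c difference in log2 units up, coloured by the limma call. The 741 higher genes reach 3.46 (Saa3) and the 1357 lower genes reach -1.56 (Fbxo9).

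The guanylate-binding and immunity-related GTPases were higher in x without exception. All 9 measured members were called higher (5.98% of all genes were), with a median difference of 1.80 against -0.03 over all genes. In 8 of the 9 every x array lay above every c array, which held in 2.82% of all genes. The count of members called higher was 9 without x arrays 2 and 4, and at least 8 with any 1 array left out. Gbp2, a guanylate-binding protein, ranged from 9.46 to 12.42 with a median of 11.03 in x and from 7.25 to 8.66 with a median of 7.64 in c. Its difference was 3.13 ± 0.46 (SE), or 8.73-fold, with an adjusted p of 0.00375, and array 4 was the lowest and array 2 the highest of code x. Gbp6, of the same family, was at the lowest deposited value in 5 of 6 c arrays and at 7.08 to 8.71 in x. Its difference of 2.60 ± 0.25 (adjusted p = 0.000475) is therefore a lower bound. Irgm1, an immunity-related GTPase that acts in autophagy and in defence against intracellular bacteria, had 8.92 to 10.09 in x and 7.63 to 8.48 in c, a difference of 1.65 ± 0.21 (3.14-fold, adjusted p = 0.00242). Irgm2, its relative, differed by 1.77 ± 0.25 (adjusted p = 0.00355). These genes belong to families of similar sequence, so a probe set may also bind transcripts of a relative.

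**Figure D3:**
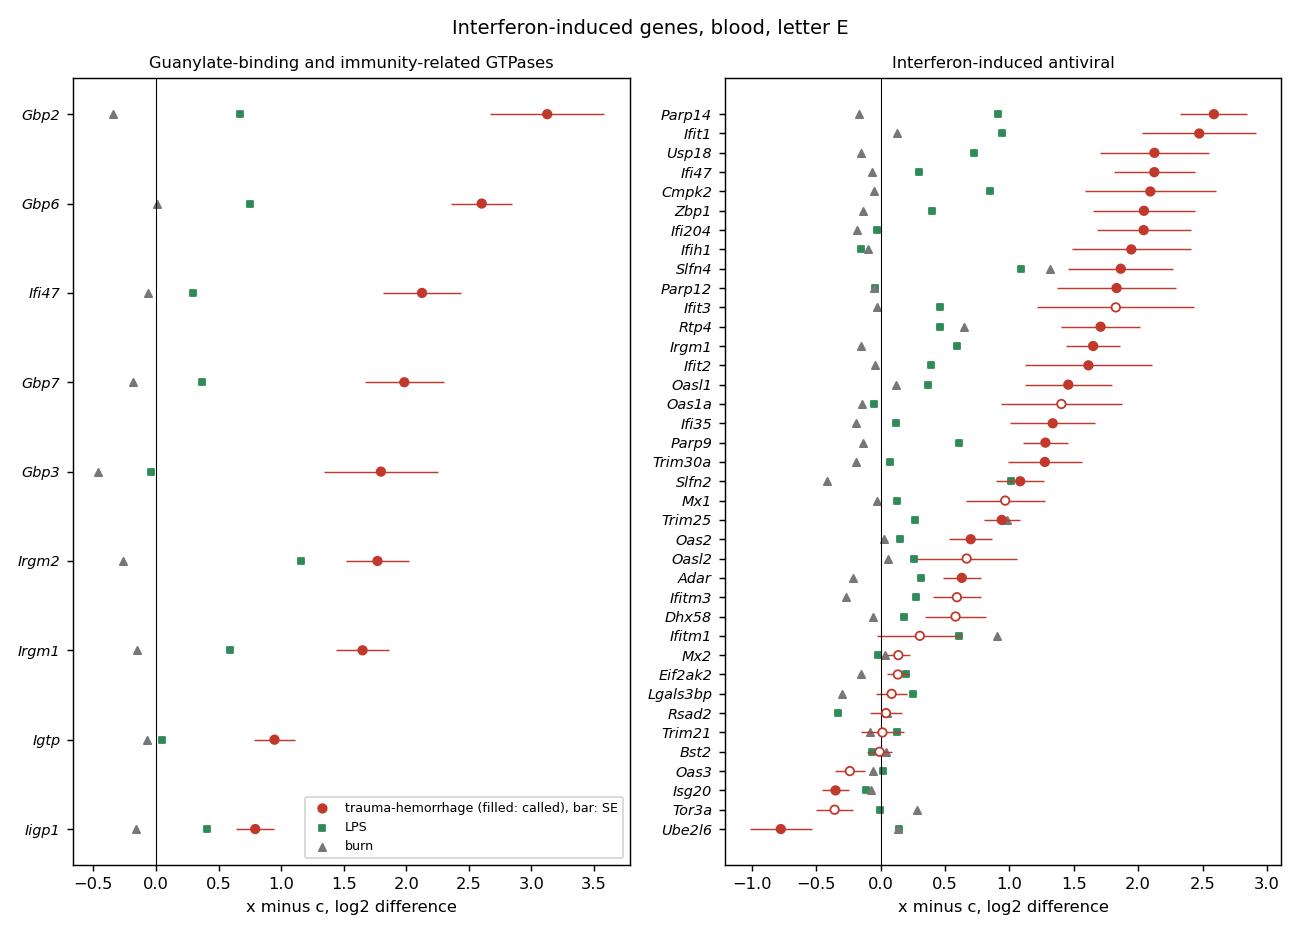
Each row is a gene of 2 interferon lists, with the x minus c difference in log2 units across, red circles for trauma-hemorrhage (filled where limma called the gene, with a bar of 1 SE), green squares for LPS and grey triangles for burn. All 9 GTPases lie right of 0 in trauma-hemorrhage, from 0.79 (Iigp1) to 3.13 (Gbp2).

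Of 38 measured genes of the interferon-induced antiviral list, 21 were higher and 2 lower (over all genes, 5.98% and 10.9%), with a median difference of 1.18. Irgm1 and Ifi47 stand in both lists. Without x arrays 2 and 4 the counts were 22 and 0, with 1 array left out 17 to 23 were higher, and the 2 lower members, Isg20 and Ube2l6 (named after their values were seen), lost their calls in 10 and 8 of those 12 fits. Parp14, an ADP-ribosyltransferase of macrophages, had 9.04 to 10.39 in x, with a median of 9.88, and 6.73 to 7.95 in c, with a median of 7.12. The difference was 2.59 ± 0.26 (6.01-fold, adjusted p = 0.000654). Parp9, which acts with the ubiquitin ligase Dtx3l, differed by 1.28 ± 0.17 (adjusted p = 0.00295). Ifi47, a GTPase of the immunity-related group, had a median of 11.37 in x and 8.98 in c and differed by 2.13 ± 0.31 (adjusted p = 0.00384). Ifit1, which binds foreign RNA that lacks the host's cap methylation, ranged from 10.19 to 13.26 in x and from 9.03 to 9.74 in c, a difference of 2.47 ± 0.44 (5.56-fold, adjusted p = 0.00826). For Parp14, Ifi47 and Ifit1, as for Gbp2, array 4 was the lowest and array 2 the highest of the x arrays.

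Not all of the antiviral list was called. Among members that were not, and that are named here with their values known, Mx2, a dynamin-like antiviral GTPase, differed by 0.14 ± 0.09, Bst2, which tethers budding virus, by -0.01 ± 0.10, and Rsad2, an enzyme that makes a chain-terminating nucleotide, by 0.04 ± 0.13. Rsad2 was among the brighter probe sets, with 13.46 to 13.86 in x and 13.42 to 13.66 in c. Ifit3, a partner of Ifit1, differed by 1.83 ± 0.61 and Oas1a, a sensor of double-stranded RNA, by 1.40 ± 0.47, with adjusted p = 0.0644 and 0.0634. In both, every x array lay above every c array, and the x arrays spread widely, from 7.87 to 12.35 for Ifit3 and from 9.01 to 12.06 for Oas1a.

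Promoters of the called interferon genes were read from RefSeq (build GRCm38.p6), 250 bases before to 50 after each start. Of the 28 distinct genes called higher in these 2 lists, 19 had a promoter there. The letters GAAANNGAA, the core of the interferon-stimulated response element bound by IRF and STAT-IRF complexes, stood on either strand in 11 of the 19 (57.9%) and in 9.76% of all 27025 genes with a promoter. The letters TTCNNNGAA of the gamma-activated site, bound by STAT dimers, stood in 6 of the 19 (31.6%) and in 9.55% of all genes, and the NF-kB consensus in 1 (5.26%) against 5.14%. The motifs were searched separately and may share bases. A match is a description of the letters and not a measured binding site. The 19 genes come from lists of interferon genes, and uncalled members of those lists were not read. The shares therefore say nothing about the codes. Stretches of 4 promoters are printed below, of 3 genes named above and of Cxcl10, since these genes carry large differences and hold the first motif, whose bases are in capitals. Each stretch is read on the strand of its gene, where a match on the other strand appears as TTCNNTTTC.
Gbp2, chr3:142620580-142620638, plus strand: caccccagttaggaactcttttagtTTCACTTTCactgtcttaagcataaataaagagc
Ifit1, chr19:34640755-34640838, plus strand: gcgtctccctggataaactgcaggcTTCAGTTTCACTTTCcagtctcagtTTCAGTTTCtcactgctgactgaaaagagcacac
Irgm1, chr11:48871421-48871475, minus strand: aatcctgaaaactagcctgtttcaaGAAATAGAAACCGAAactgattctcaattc
Cxcl10, chr5:92349069-92349127, minus strand: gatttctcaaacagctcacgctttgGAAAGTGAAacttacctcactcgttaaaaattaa
The Gbp2 stretch runs from 83 to 25 bases before the start and holds 1 match, and the Ifit1 stretch runs from 134 to 51 bases before it and holds 3, of which the first pair overlap. The Irgm1 stretch ends at the base before the start and holds 2 overlapping matches, and the Cxcl10 stretch runs from 238 to 180 bases before the start with 1.

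Interferon signals pass from receptors through JAK kinases to STAT and IRF factors, and SOCS proteins restrain them. In the list of interferon receptors, JAK, STAT, IRF and SOCS genes, 7 of 30 members were higher and 0 lower (over all genes, 5.98% and 10.9%). The median difference was 0.18. The count was 4 without c array 2, 4, 5 or 6 or x array 3 or 4, and 1 without both x arrays 2 and 4, and it was 11 with the values as deposited. Jak2, a receptor-bound kinase, differed by 0.50 ± 0.08 (adjusted p = 0.00653) and had 9.41 to 9.77 in x against 8.86 to 9.26 in c. Irf9, the DNA-binding part of the complex of type I interferon, differed by 0.50 ± 0.10 (adjusted p = 0.0133, and 0.0510 without x arrays 2 and 4). Ifngr1, a chain of the type II interferon receptor, differed by 0.77 ± 0.18 (adjusted p = 0.0187), and its x range of 9.17 to 9.88 overlapped the c range of 8.33 to 9.35.

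In MHC class I processing, 5 of 14 genes were higher and 1 lower (over all genes, 5.98% and 10.9%), with a median of 0.49. Tap1, a subunit of the peptide transporter, had 8.44 to 10.41 in x and 7.54 to 8.18 in c and differed by 1.48 ± 0.29 (2.79-fold, adjusted p = 0.0109). Tap2, the other subunit, was lower by its probe set, with a difference of -0.40 ± 0.09 (adjusted p = 0.0211, and 0.0855 without x arrays 2 and 4). For Tap1, 1 of 4 probe sets carried the call, and the lowest of them differed by -0.14. The count of 5 fell to 1 without c array 4 or 6, to 2 without c array 2 or x array 1, and to 3 without c array 3 or 5 or x array 6, and it was 8 with arrays scaled to one median. Of 12 MHC class II genes, 0 were higher and 1 was lower, with a median of -0.14, or -0.04 without x arrays 2 and 4. Under both other scalings 1 was higher. The lower member, H2-Oa, lost its call without c array 4 or x array 4 and with the values as deposited.

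Among cytokines and chemokines, 6 of 32 genes were higher and 1 lower (over all genes, 5.98% and 10.9%), with a median of 0.06. Cxcl10, a chemokine that draws T cells and NK cells and is induced by interferon, had 8.5 to 11.90 in x, with a median of 10.13, and 7.43 to 7.77 in c, with a median of 7.50. The difference was 2.62 ± 0.47 (6.17-fold, adjusted p = 0.00826), and x array 4 was again the lowest of its code. Ifnb1, which encodes interferon beta, was the lower member, at 6.79 to 7.26 in x and 7.28 to 7.58 in c, with a difference of -0.42 ± 0.09 (adjusted p = 0.0133). These levels lie near the median of all probe sets in each array, 7.18, and whether the transcript was detected was not tested. Without x arrays 2 and 4 the adjusted p of Ifnb1 was 0.0522, and 2 or 3 cytokine genes were lower without c array 1, 2 or 3 or x array 3 or 4. The count of 6 fell to 2 without c array 2, 4 or 6 or x array 2. Of 30 cytokine and chemokine receptors, 4 were higher, and 2 were without c array 2, 4, 5 or 6 or x array 1, 2, 4 or 6. Il1rap, the shared chain of the interleukin 1 and interleukin 33 receptors, had 9.37 to 10.39 in x and 6.80 to 8.89 in c and differed by 1.73 ± 0.31 (adjusted p = 0.00836). Tnfrsf1b, a receptor for tumor necrosis factor, differed by 1.02 ± 0.18 (adjusted p = 0.00749), while 1 of its 2 probe sets differed by 0.07 and was not called.

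The gene with the largest difference of all was Saa3, an acute phase serum amyloid made by macrophages among other cells. It had 11.18 to 12.55 in x, with a median of 11.85, and 7.75 to 9.47 in c, with a median of 8.25. The difference was 3.46 ± 0.30 (11-fold, adjusted p = 0.000322), and no x array came within reach of the c range. Acod1, the enzyme that makes itaconate in activated macrophages and neutrophils, had 10.32 to 12.28 in x and 7.09 to 9.63 in c and differed by 3.0 ± 0.42 (7.99-fold, adjusted p = 0.00346). Of 20 acute phase and antimicrobial genes, 3 were higher (over all genes, 5.98%), and 5 and 6 were with the values as deposited and with median scaling. The median was 0.13, and it turned to -0.04 without x arrays 2 and 4. Prok2, a secreted prokineticin that neutrophils make, differed by 2.67 ± 0.39 (6.35-fold, adjusted p = 0.00374) by 1 of its 3 probe sets, and the lowest of them differed by 0.11. Of 16 arginine, itaconate and prostaglandin enzymes, 1 was higher, which is again Acod1, and 2 were without x array 6. Of 13 basophil, mast cell and eosinophil markers, 1 was higher, and the median was -0.02. Of the 4 with the smallest p, Siglecf, Ms4a2 and Prg2 differed by -0.24, -0.20 and -0.17 and were not called. The higher one was Hdc, which makes histamine. It differed by 1.71 ± 0.42 (3.27-fold, adjusted p = 0.0242, and 0.0937 without x arrays 2 and 4).

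**Figure D4:**
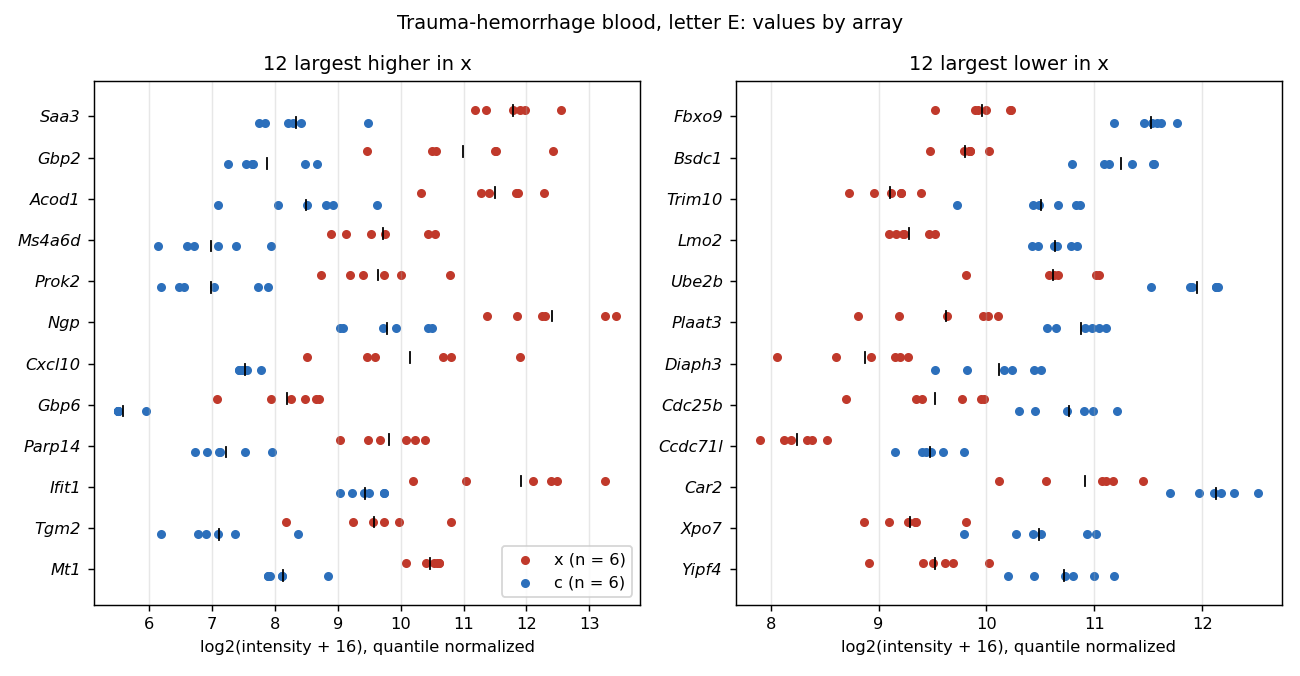
Points are single arrays for the 12 genes with the largest higher and the 12 with the largest lower difference, with log2(intensity + 16) across and short black lines for group means (n = 6 per code). The groups do not overlap in any of these genes other than Tgm2 on the left and Xpo7 on the right. The genes were picked for their large difference in these arrays, so this follows largely from the choice. Over all genes, x lay wholly above c in 2.82% and wholly below in 4.63%.

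Of 20 measured markers of monocytes and macrophages, 4 were higher and 0 lower (over all genes, 5.98% and 10.9%), with a median of 0.31. Without x arrays 2 and 4 the count was 4 and the median 0.16. Ms4a6d, a membrane protein of the MS4A family, had 8.90 to 10.54 in x and 6.14 to 7.93 in c and differed by 2.74 ± 0.36 (6.67-fold, adjusted p = 0.00252). Of its 3 probe sets, 2 carried the call. Cd14, the co-receptor for LPS, had a median of 12.09 in x and 9.71 in c and differed by 2.18 ± 0.28 (4.52-fold, adjusted p = 0.00245). Msr1, a scavenger receptor, differed by 1.65 ± 0.20 (adjusted p = 0.00205), with the call in 2 of 4 probe sets. The mean level of the list ranged from 9.28 to 10.13 in x and from 8.63 to 9.42 in c, so the codes overlapped. In the complement and Fc receptor list, 2 of 21 were higher and 3 lower, near the shares over all genes (5.98% and 10.9%). From it, Fcgr2b, the inhibitory Fc receptor, differed by 1.41 ± 0.17 (2.66-fold, adjusted p = 0.00204) with all 4 of its probe sets called. In the same list C3ar1, the receptor for complement fragment C3a, differed by -0.42 ± 0.07 (adjusted p = 0.00758), although 1 of its 2 probe sets differed by 0.16. Without c array 2, 4 or 6 or x array 1, 1 member of that list was higher, and without c array 5, 5 were lower. With median scaling 5 were higher and 4 lower.

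Markers of neutrophils gave 4 higher and 1 lower of 21 (over all genes, 5.98% and 10.9%), with a median of 0.36. Ngp, a granule protein made by immature neutrophils, had 11.37 to 13.42 in x and 9.03 to 10.50 in c and differed by 2.63 ± 0.39 (6.17-fold, adjusted p = 0.00424). Its highest arrays were x arrays 2 and 4. The mean level of the list was 10.64 or more in those 2 arrays, 9.65 to 9.94 in the other x arrays and 8.98 to 9.75 in c. Without both, 1 member was higher and the median was 0.12. A single array could do as much: 1 member was higher without c array 1, 4 or 6 or x array 2, 3, 4 or 6, and 2 were without c array 2. The lower member, Ctsg, lost its call without c array 2, 4, 5 or 6 or x array 4 or 5, and 2 were lower without x array 2. In bulk leukocyte RNA, more or fewer cells of a type and more or less RNA per cell cannot be told apart.

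Of 25 Toll-like receptor and pattern sensing genes, 8 were higher and 1 lower (over all genes, 5.98% and 10.9%). The median was 0.32, and 5 were higher without c array 4. Without x arrays 2 and 4, 5 were higher and the median was 0.19. The lower count was 0 without c array 4 and under both other scalings, and 2 without x array 3. Casp4, the caspase that binds cytosolic LPS, had 9.92 to 11.29 in x and 7.88 to 9.01 in c and differed by 1.85 ± 0.24 (3.60-fold, adjusted p = 0.00268). Casp1, the inflammasome caspase that matures interleukin 1 beta, differed by 1.33 ± 0.28 (adjusted p = 0.0135). Tlr2, a receptor for bacterial lipoproteins, differed by 1.29 ± 0.27 (adjusted p = 0.0133), and its lowest x array, at 8.32, lay under the highest c array, at 8.43. Of 20 NF-kB subunits and regulators, 9 were higher and 1 lower, with a median of 0.33. That count of 9 fell to 4 without c array 4, to 5 without c array 6 or x array 4, and to 3 without both x arrays 2 and 4. Tnip1, which restrains NF-kB together with A20, had 9.02 to 10.41 in x and 8.14 to 8.67 in c and differed by 1.53 ± 0.22 (2.90-fold, adjusted p = 0.00346). Relb, a subunit of the noncanonical pathway, differed by 0.67 ± 0.13 (adjusted p = 0.0113), and Traf2, an adaptor of tumor necrosis factor receptors, by -0.27 ± 0.06 (adjusted p = 0.0165).

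Genes of cell death gave 6 higher and 3 lower of 24 (over all genes, 5.98% and 10.9%), with a median of 0.07. Fas, a death receptor, had 7.15 to 8.24 in x and 6.02 to 6.67 in c and differed by 1.43 ± 0.18 (2.70-fold, adjusted p = 0.00217). Casp8, the caspase that Fas recruits, differed by 1.12 ± 0.22 (2.17-fold, adjusted p = 0.0111). Bcl2l1, which encodes the survival protein Bcl-xL and is used heavily by maturing red cells, differed the other way, by -0.81 ± 0.15 (adjusted p = 0.00829), with the call in 1 of its 4 probe sets. In all 3 genes the codes did not overlap.

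In the oxidative stress and metallothionein list, 3 of 18 were higher and 2 lower (over all genes, 5.98% and 10.9%). The median was 0.09, and 5 were higher under both other scalings. Mt1, a metallothionein that binds zinc and copper, had 10.08 to 10.62 in x and 7.90 to 8.85 in c. The difference was 2.34 ± 0.16 (5.06-fold, adjusted p = 0.000182), and the other of its 2 probe sets differed by -0.13. Sod2, the manganese superoxide dismutase of mitochondria, differed by 1.44 ± 0.14 (2.72-fold, adjusted p = 0.000475), and Txnrd1, thioredoxin reductase, by 1.62 ± 0.27 (adjusted p = 0.00645). Of the 3 probe sets of each, 2 carried the call for Sod2, where the lowest differed by -0.26, and 1 for Txnrd1. Gclm, the modifier subunit of the enzyme that starts glutathione synthesis, was lower in x, at 10.07 to 11.07 against 11.42 to 12.11, with a difference of -1.10 ± 0.19 (adjusted p = 0.00749). Tgm2, the tissue transglutaminase of macrophages, differed by 2.47 ± 0.44 (5.52-fold, adjusted p = 0.00821). Its codes overlapped, with x array 1 at 8.18 and c array 3 at 8.37.

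Of 20 glucocorticoid-induced genes, 6 were higher, Mt1 among them, and 0 lower (over all genes, 5.98% and 10.9%), with a median of 0.35. The count was 3 without c array 2, 4 or 6 or x array 4 or 5. Without both x arrays 2 and 4 it was 2, and the median fell to 0.04. Cd163, the hemoglobin scavenger receptor, differed by 0.35 ± 0.06 (adjusted p = 0.00580) near the bottom of the scale, with 2 c arrays at the lowest value, so its difference is a lower bound. Of 19 iron handling genes, 3 were higher and 3 lower (over all genes, 5.98% and 10.9%). Fth1, the heavy chain of the iron store ferritin, differed by 0.53 ± 0.11 (adjusted p = 0.0135). The 3 lower members became 1 without c array 2, 4, 5 or 6 or x array 4 or 5, and 1 under both other scalings.

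Of 20 endoplasmic reticulum stress genes, 4 were higher and 2 lower (over all genes, 5.98% and 10.9%). The median was 0.14, and 2 were higher without c array 2, 4 or 6 or x array 4. Hspa5, the chaperone BiP, had 10.55 to 11.30 in x and 9.23 to 10.33 in c and differed by 1.04 ± 0.18 (2.06-fold, adjusted p = 0.00758). Eif2ak3, the stress sensor PERK, differed by -0.82 ± 0.17 (adjusted p = 0.0133). Of 17 heat shock chaperones, 1 was higher, Hspa4, which lost its call in 10 of the 12 fits with an array left out. None was higher without c array 2, 3, 4, 5 or 6 or x array 1, 2, 4 or 6, and 2 were without x array 3 and 3 with median scaling. The mean level of these chaperones reached 9.64 in x array 5 and 7.98 to 8.18 in the other x arrays.

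Glycolysis and hypoxia genes gave 8 higher and 3 lower of 21 (over all genes, 5.98% and 10.9%), with a median of 0.27. Hif1a, the oxygen-regulated transcription factor that also serves activated myeloid cells, had 9.55 to 10.32 in x and 8.17 to 9.24 in c and differed by 1.08 ± 0.18 (2.12-fold, adjusted p = 0.00608). The call was in 1 of its 4 probe sets, and the lowest differed by -0.03. Ldha, lactate dehydrogenase A, differed by 0.86 ± 0.19 (adjusted p = 0.0168), and Hk1, hexokinase 1, by 0.56 ± 0.11 (adjusted p = 0.0115). The count of 8 fell to 4 without c array 2, 4, 5 or 6 or x array 1 or 4, and to 5 without x array 2 or 5. The 3 lower members became 0 without c array 4 or 6 and 1 without c array 2 or x array 2, 4 or 5.

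Over all genes, 5.98% were higher and 10.9% lower. Oxidative phosphorylation gave 4 higher and 6 lower of 40, with a median of 0.02, and translation factors 5 higher and 3 lower of 23. Both depended on the scaling. With the values as deposited and with median scaling, 8 and 9 respiratory genes were higher and 3 lower, so the balance turned, and 8 and 9 translation factors were higher and 2 lower. Without x arrays 2 and 4 the respiratory genes gave 1 higher and 3 lower. Ndufa1, a subunit of complex I, differed by -0.71 ± 0.14 (adjusted p = 0.0104), and Cyc1, cytochrome c1 of complex III, by 0.47 ± 0.09 (adjusted p = 0.0116). Eif5, which triggers GTP hydrolysis at the start codon, differed by -0.92 ± 0.13 (adjusted p = 0.00312) with all 4 of its probe sets called. The 4 higher respiratory genes became 2 without c array 4 or 5 or x array 4 or 6 and 1 without c array 6, and the 5 higher translation factors became 2 without c array 4 or 6 and 3 without c array 2 or x array 2, 4, 5 or 6. Cytosolic ribosomal proteins depended on the scaling as well. Of 36, 3 were higher and 1 lower after quantile normalization, and 15 and 16 were higher with the values as deposited and with arrays scaled to one median, where 0 were lower. The 3 became 1 without c array 4, 5 or 6 or x array 1, 2, 3, 5 or 6, and the lower one, Rps9, lost its call without c array 1, 2, 4, 5 or 6 or x array 1, 2, 4 or 5.

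The 12 genes with the largest lower difference ranged from -1.56 to -1.20. Fbxo9, a subunit of an SCF ubiquitin ligase, had 9.52 to 10.23 in x, with a median of 9.96, and 11.18 to 11.77 in c, with a median of 11.56. The difference was -1.56 ± 0.13 (2.96-fold lower, adjusted p = 0.000322). Lmo2, a bridge protein of the blood transcription complex with Tal1 and Gata1, had 9.10 to 9.53 in x and 10.42 to 10.84 in c, a difference of -1.35 ± 0.09 (2.54-fold lower, adjusted p = 0.000182). Trim10, a tripartite motif protein needed for terminal erythroid differentiation in mouse cells, had 8.72 to 9.40 in x and 9.72 to 10.87 in c and differed by -1.40 ± 0.19 (adjusted p = 0.00288). These groups did not overlap, in genes picked for their large difference.

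Car2, the carbonic anhydrase 2 of red cells, had a median of 11.09 in x and 12.14 in c and differed by -1.21 ± 0.22 (2.32-fold lower, adjusted p = 0.00873). Slc4a1, the band 3 anion exchanger of the red cell membrane, had 10.35 to 10.98 in x and 10.95 to 12.02 in c and differed by -0.98 ± 0.17 (adjusted p = 0.00826), with 2 of 3 probe sets called. Xpo7, a nuclear exporter that acts in erythroid maturation, differed by -1.20 ± 0.21 (adjusted p = 0.00815). Ube2b, a ubiquitin-conjugating enzyme, differed by -1.33 ± 0.20 (adjusted p = 0.00414), and Bsdc1, a protein with a BSD domain, by -1.44 ± 0.14 (adjusted p = 0.000475). Diaph3, a formin, differed by -1.25 ± 0.23, Plaat3, a phospholipase and acyltransferase, by -1.25 ± 0.22, and Cdc25b, a phosphatase that starts mitosis, by -1.24 ± 0.23. Ccdc71l differed by -1.24 ± 0.12 and Yipf4, a membrane protein of the Golgi, by -1.20 ± 0.20, and the adjusted p-values of these 5 ran up to 0.0094.

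The 14 measured erythroid markers gave 4 lower and 1 higher (over all genes, 10.9% and 5.98%), with a median of -0.13. The mean level of the list was 8.97 to 9.30 in x and 9.31 to 9.60 in c, with no overlap. The list did not move as one: Alas2, the first enzyme of heme synthesis in red cells, and Fech, the last, were not called, with means of 13.3 and 13.2 in x and 13.4 and 13.5 in c (named after their values were seen). Whether signals this bright are saturated was not tested. Hba-a1, an alpha globin, was the higher member, at 6.07 to 6.29 in x and 5.91 to 6.06 in c, a difference of 0.19 ± 0.04 (adjusted p = 0.0149) close to the bottom of the scale for its probe set. The 4 lower members became 2 without c array 4, 5 or 6 or x array 2, 4 or 5, and 2 without both x arrays 2 and 4, where the median was -0.07.

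Of 15 B cell markers, 2 were lower and 0 higher (10.9% and 5.98% of all genes were), with a median of -0.41, or -0.27 without x arrays 2 and 4. With the values as deposited 0 were lower, and the mean level ran from 7.97 to 8.51 in x and from 8.26 to 9.25 in c. Cd37, a tetraspanin of B cells, had 8.78 to 9.09 in x and 9.17 to 9.38 in c and differed by -0.37 ± 0.06 (adjusted p = 0.00688), although its other probe set differed by 0.22. Under both other scalings Cd37 differed by -0.18 and was not called. Of 20 T cell markers, 2 were higher and 2 lower, with a median of 0.02. The higher ones by limma were Il7r, at 0.91 ± 0.24 (adjusted p = 0.0316), and Cd3d, at 0.57 ± 0.17 (adjusted p = 0.0478). The lower ones were Foxp3, at -0.18 ± 0.05 (adjusted p = 0.0373), and Cd4, the co-receptor of helper T cells. Cd4 differed by -0.44 ± 0.10 (adjusted p = 0.0202, and 0.0639 without x arrays 2 and 4). The call was in 1 of its 2 probe sets, and the other differed by -0.06. Under both other scalings Cd4 differed by -0.19 and was not called. The higher T cell members became 1 without c array 1, 2 or 3 and 0 without c array 4, 5 or 6 or x array 1, 3, 4 or 6, and the lower became 1 without any array other than c 3, c 5 or x 3, and 1 under both other scalings. None of 17 NK and cytotoxic markers was called by limma with all arrays after quantile normalization, while 2 were higher under both other scalings and without c array 1, and 1 was lower without c array 3. For Gzma, a granzyme, the difference was 0.79 ± 0.25 with adjusted p = 0.0577, and for Eomes, a transcription factor of NK cells, -0.39 ± 0.12 with adjusted p = 0.0545.

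Of 12 dendritic cell markers, 3 were lower and 0 higher (over all genes, 10.9% and 5.98%). The median was -0.05, and 1 was lower without x arrays 2 and 4. Tcf4, a transcription factor of plasmacytoid dendritic cells that other cells also express, differed by -0.31 ± 0.06 (adjusted p = 0.0116) by 1 of its 6 probe sets. Under both other scalings Tcf4 differed by -0.12 and was not called. Of 13 platelet and megakaryocyte markers, 2 were higher, with a median of 0.04. Under both other scalings 5 were higher, and without x arrays 2 and 4, 0 were and the median was 0.24. Selp, the platelet P-selectin, had 9.06 to 9.80 in x and 7.86 to 8.99 in c and differed by 0.92 ± 0.20 (adjusted p = 0.0155, and 0.0716 without x arrays 2 and 4). It was the 1 member that stayed called when any array was left out, since Gp5, a chain of the von Willebrand factor receptor, lost its call in 11 of the 12 fits. Defining markers of neutrophils (S100a8), monocytes (Lyz2), B cells (Ms4a1), T cells (Cd3e) and platelets (Ppbp) had means of 9.8 to 13.4 in both codes.

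**Figure D5:**
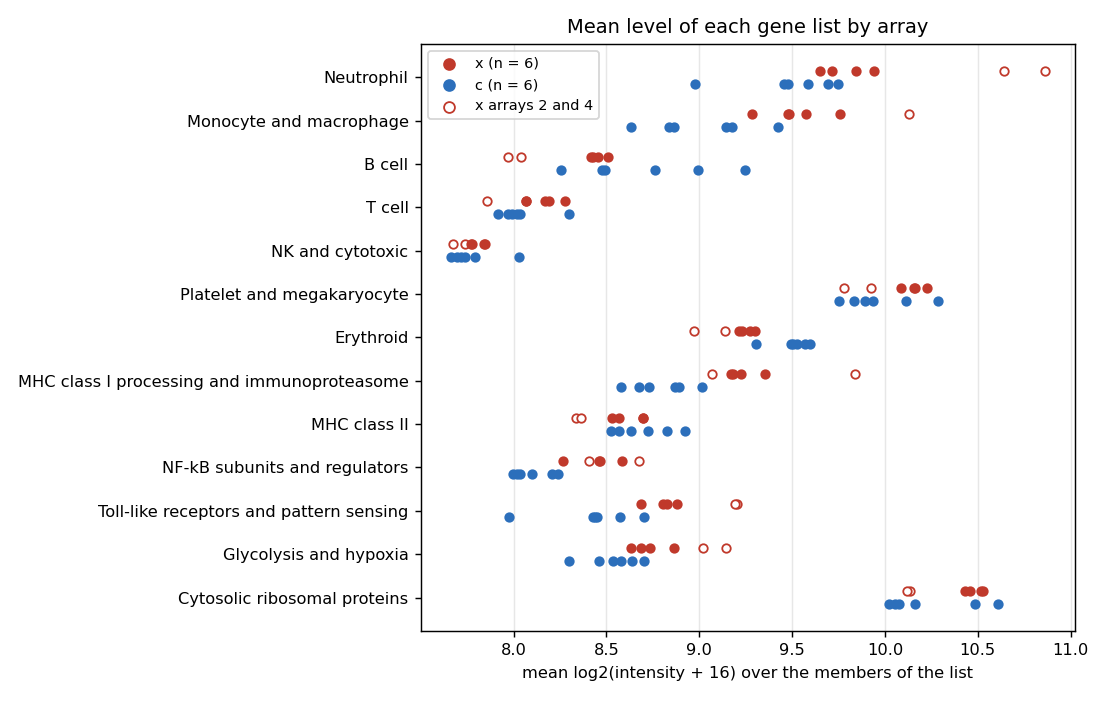
Points are single arrays, with the mean log2(intensity + 16) over the members of each list across, filled for all arrays except x arrays 2 and 4, which are open. The codes overlap in the marker lists other than the erythroid one, where x lies at 8.97 to 9.30 and c at 9.31 to 9.60.

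Among the remaining lists, the circadian clock had 4 lower and 0 higher of 17 (over all genes, 10.9% and 5.98%). The median was -0.11, and 2 were lower without c array 4 or 6 or x array 1, 2 or 4. Without both x arrays 2 and 4 the median was -0.04. Cry2, a repressor of the clock, had 7.11 to 7.40 in x and 7.68 to 8.13 in c and differed by -0.65 ± 0.09 (adjusted p = 0.00299). Of 27 immediate early and AP-1 genes, 1 was higher and 4 lower (over all genes, 5.98% and 10.9%), and 0 were lower under both other scalings. Jund, a subunit of AP-1, had 11.99 to 12.44 in x and 12.54 to 12.74 in c and differed by -0.36 ± 0.09 (adjusted p = 0.0280). Those 4 lower members became 0 without c array 2, 4 or 6, 1 without x array 4 and 2 without x array 1 or 2, and the higher one, Fosl2, lost its call in 10 of the 12 fits. In cell cycle and DNA replication, 3 of 29 were higher and 4 lower, near the shares over all genes. Mcm4, a subunit of the replicative helicase, differed by 0.81 ± 0.14 (adjusted p = 0.00821). Those 4 lower members became 0 without c array 4, 1 without c array 5 or 6 or x array 2, 4 or 5, and 2 without c array 2 or x array 1. In adhesion and lymphocyte homing, 1 of 22 was higher and 1 lower, and 2 were higher under both other scalings. The lower one, Cd44, lost its call without c array 4 or 6, and its difference turned to 0.00250 and 0.00366 with the values as deposited and with median scaling. The higher one, Cd47, which signals to phagocytes not to engulf a cell, had 10.98 to 12.28 in x and 10.48 to 10.79 in c and differed by 0.87 ± 0.18 (adjusted p = 0.0122), in 2 of its 4 probe sets.

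Whether the x minus c difference depends on the injury label was asked with the 10 letter A arrays of the same set. limma called 0 of 22626 probe sets (0%) for the difference between the letters, with a smallest adjusted p of 0.599 and 1660 at an unadjusted p under 0.05. That 0 does not show the differences to be the same. Saa3 differed by 3.46 in letter E and 4.46 in letter A, Gbp2 by 3.13 and 3.60, Parp14 by 2.59 and 2.90, and Cxcl10 by 2.62 and 2.76. On the lower side Fbxo9 differed by -1.56 and -1.57 and Lmo2 by -1.35 and -1.01. The median of the GTPase list was 1.80 in letter E and 2.26 in letter A, and that of the antiviral list was 1.18 and 1.46. Each of these 6 genes, picked from the largest letter E differences, had the same direction in the arrays labelled sham. Other named genes were less alike: Xpo7 differed by -1.20 in letter E and -0.54 in letter A, and Gp5 by 0.28 and -0.03. The median of the platelet and megakaryocyte list was 0.04 and -0.24.

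The same codes were compared in letter E blood of the LPS and burn sets, which have 11 arrays each. Both tests use the same 12 trauma-hemorrhage arrays. The difference was unlike that of LPS in 3899 probe sets and unlike that of burn in 2752. By gene, trauma-hemorrhage was above LPS in 8.26% and below it in 9.73%, and above burn in 5.66% and below it in 7.38%. All 9 GTPases were above burn and 7 were above LPS. Of the 38 antiviral genes, 22 were above burn and 2 below, and 18 were above LPS and 1 below. The list medians were 1.80, 0.40 and -0.16 for the GTPases in trauma-hemorrhage, LPS and burn, and 1.18, 0.25 and -0.06 for the antiviral genes.

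Of 20 NF-kB genes, 9 were above burn and 1 below (over all genes, 5.66% and 7.38%). Against LPS, 0 were above and 2 below (over all genes, 8.26% and 9.73%). The medians of this list were 0.33, 0.36 and -0.08 in trauma-hemorrhage, LPS and burn. Of 36 ribosomal protein genes, 15 were above LPS and 1 below (over all genes, 8.26% and 9.73%). Against burn, 1 was above and 2 below (over all genes, 5.66% and 7.38%). These counts were taken after quantile normalization only, and the calls of this list within trauma-hemorrhage depended on the scaling. For neutrophil markers the median was 0.36 in trauma-hemorrhage, 1.24 in LPS and 0.14 in burn. Of these 21 markers, 0 were above LPS and 3 below (over all genes, 8.26% and 9.73%). Plac8, a small protein of myeloid and lymphoid cells, differed by 1.83 in trauma-hemorrhage and by -0.68 in LPS, a difference between the sets of 2.51. Cndp2, a cytosolic dipeptidase, differed by 1.79 and -0.98, a difference of 2.77. Pglyrp1, a peptidoglycan recognition protein of neutrophil granules, went the other way, with -0.01 in trauma-hemorrhage and 2.81 in LPS. Against burn, Slc40a1, the iron exporter ferroportin, differed by -1.22 in trauma-hemorrhage and 0.93 in burn (not called under the other scalings), and Clec7a, the receptor for fungal beta-glucan, by -1.09 and 1.01. Cxcl10 separated trauma-hemorrhage from burn (2.62 against -0.09), and for LPS its difference was 2.75 (adjusted p of the difference between sets 0.936).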

How the data were processed

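The submitters deposited one linear intensity per probe set and array. The sources used here do not give how the authors computed and scaled these intensities, and the lowest value of the set, 28.9, acts as a floor. Precision is limited by how many arrays there are. The 64 manufacturer's control probe sets were left out of the tests, and 22626 remained. Gene symbols were taken from the annotation of the platform (1 symbol for 20380 probe sets, several for 691, none for 1555) and were updated by Entrez ID for 20351 through RefSeq GRCm38.p6. For each gene the probe set brightest on average over the 12 arrays was used.

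Intensities were quantile normalized as log2(value + 16) over the 64 blood arrays, so differences of dim genes are understated. The tests used limma 3.58.1 under R 4.3.3 (lmFit, eBayes with a trend, two-sided, Benjamini-Hochberg over all 22626 probe sets, adjusted p 0.05), after tests on simulated data. The letters were compared in a fit of the 4 trauma-hemorrhage groups, and the sets in a fit of the 6 letter E groups. Errors are standard errors (SE) unless SD is given. A level is a log2(value + 16), and levels of different genes were not compared.

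The members, the 35 gene lists and the tests were chosen with earlier results of these data known. Named by rule were the 12 largest called genes each way, up to 4 members of each list with the smallest p, and the 6 largest each way against LPS and burn. Alternatives were other pseudocounts, scalings, filters, variance models and fits, title-number runs, the beta-actin ratio as a covariate and leaving out arrays. Leaving out x arrays 2 and 4 was chosen after seeing the data.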

Additional observations from a re-analysis of the deposited data

Results flagged for a closer look

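Of 118 groups of 6 values examined, 15 held a value far from the rest, and chance flags about 1 group in 20. Among named genes, c array 4 had 7.77 for Cxcl10 (the rest 7.43 to 7.55), c array 3 had 5.95 for Gbp6 (the rest at the floor of 5.51), c array 1 had 8.85 for Mt1 (the rest 7.90 to 8.12) and x array 2 had 9.81 for Ube2b (the rest 10.58 to 11.04). Among mean levels of lists, c array 2 stood apart for T cells (8.30), cytokine receptors (8.01), Toll-like receptors and pattern sensing (7.98), cell cycle (7.74) and arginine and itaconate enzymes (7.88). Array 1 of code c stood apart for NK markers (8.03) and c array 3 for erythroid markers (9.31). Array 2 of code x stood apart for MHC class I processing (9.84) and complement and Fc receptors (8.77), x array 3 for cytokines (8.32) and x array 5 for heat shock chaperones (9.64).

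The x minus c difference of trauma-hemorrhage exceeded that of LPS, by limma, by 3.37 for Ms4a6d, 2.85 for Saa3, 2.77 for Cndp2, 2.51 for Plac8, 2.46 for Gbp2 and 2.29 for Tgm2. It was below that of LPS by the differences -2.82 for Pglyrp1, -1.92 for Retnla, -1.82 for Hacd2, -1.74 for Pygl, -1.66 for Gpsm3 and -1.65 for Slc46a1. Against burn it was above by 4.50 for Saa3, 3.47 for Gbp2, 3.22 for Ms4a6d, 2.76 for Parp14, 2.73 for Prok2 and 2.71 for Cxcl10. It was below, with differences of -2.22 for Jdp2, -2.15 for Slc40a1, -2.10 for Clec7a, -1.92 for Ell2, -1.81 for Ankrd33b and -1.67 for Rell1. The calls of Pygl, Retnla, Jdp2 and Slc40a1 were lost with another scaling, and that of Ankrd33b with the values as deposited. Leaving out 1 array, Pygl lost its call in 9 of 12 fits, Jdp2 in 7 and Retnla in 2 (without c array 6 or x array 1).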

How the results depend on the processing

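Pseudocounts of 1 and 64 gave 3520 and 3524 called probe sets, against 3532. Fitting all 12 blood groups together gave 6647 (2748 higher, 3899 lower), a minimum difference of 1 log2 gave 253 (203 and 50), the first title-number run alone 1 (1 and 0), the second alone 1713 (858 and 855), the beta-actin covariate 0, and the fit without x arrays 2 and 4, 1274 (590 and 684). Leaving out 1 array gave 1662 to 4081 (685 to 1559 higher, 977 to 2522 lower). The letter comparison called 1 probe set with all 12 groups in one fit and 1 without x arrays 2 and 4. With a minimum of 1 log2, 475 probe sets differed from LPS and 366 from burn, and 1757 differed from burn without x arrays 2 and 4. Leaving out 1 array gave 3068 to 4640 for LPS and 2077 to 3204 for burn. The causes were not tested.

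Of 146 gene values followed, 146 kept direction and call under pseudocount 1 and array weights, 123 with the values as deposited, 131 with median scaling and 104 without x arrays 2 and 4. With the covariate, Lcn2 turned to -0.36, Fcgr1 to -0.44, Irf9 to -0.0302, Csf2rb to -0.30, Casp1 to -0.0190, Pfkp to -0.0272 and Slc48a1 to 0.10, none called. Rps9 turned to 0.10 as deposited and 0.10 with median scaling, and Cd44 to 0.00250 and 0.00366. No paired analysis was possible because the replicate numbers follow accession order and pair no samples.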
